A study of Mus musculus with 6 samples.

Results

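Ddx58, Dhx58, Ddx60, Eif2ak2 and Helz2 encode proteins that bind or unwind nucleic acids and are known as interferon-induced genes. These 5 genes, of 12718 in each deposited count table, were taken by name. They had been chosen by their knockout and WT values in these same tables, so every knockout and WT difference of theirs below, in all 3 regions, is a description and supports nothing. RNA polymerase II on DNA was measured by ChIP-seq, in which chromatin fragments pulled down by an antibody are sequenced, here one against the N-terminal part of RPB1, the largest subunit. The groups were whole adrenal glands of 3 Armc5(-/-) mice (the knockout) and of 3 WT mice, all female, of strain 129 sv X CD1 and aged 10 to 14 months. Reads were counted at the transcription start site (TSS), over the gene body and at the transcription end site (TES) of each gene, and all 5 genes passed the filter on low counts in each region. The 6 libraries carry 6 different mouse numbers and were taken as separate animals.

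As background, RIG-I (Ddx58) is a receptor for double-stranded RNA with a triphosphate end, and it signals through the mitochondrial adaptor MAVS to induce type I interferon. LGP2 (Dhx58) is its relative without the signalling domains and modulates it and the sister receptor MDA5. DDX60 is a DExD/H-box helicase with antiviral roles, PKR (Eif2ak2) is a kinase that is activated by double-stranded RNA and phosphorylates the translation factor eIF2 alpha, and HELZ2 is a large helicase known as a coactivator of nuclear receptors. Interferon raises such genes through factors, IRF9 among them, that bind the interferon-stimulated response element in their promoters. RPB1 signal near a TSS marks polymerase that is being loaded or is paused, signal in the gene body marks elongation, and signal at the TES marks polymerase before release.

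The promoters of Ddx60, Ddx58, Eif2ak2 and Helz2 are shown because TSS counts were taken around these starts and because letters of that element can be looked for in them (RefSeq, GRCm38.p6). Each is written 5′ to 3′ on the gene's strand, Ddx60 from 250 bases before its start to 49 after it and the others from 100 before to 49 after, with the start base as position 0. Capitals mark GAAANNGAAA, the core of the element on either strand, or GAAANGAAA, the same letters with a gap of 1 base. The windows are chr8:61927837-61928136 (plus strand) for Ddx60, chr4:40239776-40239925 (minus) for Ddx58, chr17:78882523-78882672 (minus) for Eif2ak2 and chr2:181241978-181242127 (minus) for Helz2.
Ddx60: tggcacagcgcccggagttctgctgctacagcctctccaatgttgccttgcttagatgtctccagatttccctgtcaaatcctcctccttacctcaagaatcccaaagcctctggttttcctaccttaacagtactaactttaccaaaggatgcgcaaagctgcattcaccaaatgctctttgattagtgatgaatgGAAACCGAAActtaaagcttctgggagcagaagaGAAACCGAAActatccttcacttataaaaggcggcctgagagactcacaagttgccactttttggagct
Ddx58: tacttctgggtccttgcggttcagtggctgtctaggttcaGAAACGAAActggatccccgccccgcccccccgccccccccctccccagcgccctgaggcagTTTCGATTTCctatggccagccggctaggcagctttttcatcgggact
Eif2ak2: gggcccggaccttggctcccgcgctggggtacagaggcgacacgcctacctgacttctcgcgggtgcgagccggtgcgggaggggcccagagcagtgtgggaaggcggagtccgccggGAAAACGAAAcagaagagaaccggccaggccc
Helz2: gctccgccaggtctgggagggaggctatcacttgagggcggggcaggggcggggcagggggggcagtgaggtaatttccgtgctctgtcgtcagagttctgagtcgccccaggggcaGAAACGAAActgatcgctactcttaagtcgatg

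Ddx60 held GAAANNGAAA at 2 places, positions -53 to -44 and -19 to -10, both with the letters GAAACCGAAA. Eif2ak2 held it at 18 to 27, after its annotated start, and Ddx58 held it on the other strand at 2 to 11. Helz2 had no match to it in its 300-base window. Of all 32851 RefSeq promoter windows of that length, 3.44% held GAAANNGAAA on either strand, and 3% of the 12349 windows that belong to genes of the count tables did. The closer spacing GAAANGAAA was searched after the letters had been read. It stood at -60 to -52 in Ddx58 and at 17 to 25 in Helz2, and 3.17% of all windows held it. The longest stretch that these 2 promoters shared was 14 bases, cagaaacgaaactg, and the searched motif covers 9 of them. The gamma-activated site TTCNNNGAA occurred in Eif2ak2, at -178 to -170, and in 8.3% of all windows. CGAAAC, also searched after the letters had been read and part of several of the matches above, was in all 4 promoters. It was in 3.55% of all windows and in 5.16% of the windows that belong to genes of the count tables. A match describes letters and was not tested as a bound site. Dhx58 is named only.

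The 6 libraries summed to between 14511177 and 28190157 counts over the 3 regions. Knockout replicate 1 and WT replicates 1 and 2 had the fewest, so the class with few counts holds 1 knockout and 2 WT libraries and the other class 2 knockout and 1 WT library. Counts of the listed genes were 38 to 3649 per library and region, and counting error alone is 16.2% of the lowest and 1.66% of the highest. Levels are CPM, which relates a count to the size of its library, scaled within each region's table by TMM (a trimmed mean of ratios between libraries). Called means an adjusted p under 0.05 in edgeR's quasi-likelihood test, run over all genes of a table. All 9 adrenal cortex markers looked for (such as Star, Cyp11a1 and Mc2r) had counts, and their summed gene body level was 4544 to 5661 CPM in knockout and 2820 to 7030 CPM in WT glands. Armc5 itself was not analysed here.

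Ddx60 showed the highest fold change of the 5 genes at its TSS, with about the same level in the 3 knockout glands and a lower one in each WT gland. Its gene (chromosome 8, 61928073 to 62037704) spans 109632 bp and has 0 annotated neighbours within 5000 bp. TSS levels were 117, 127 and 129 CPM in knockout replicates 1 to 3, against 29.4, 49.6 and 39.7 CPM in WT replicates 1 to 3. The groups did not overlap, and the lowest knockout gland lay above the highest WT gland by more than the range within either group. The fold was 3.2 (log2 fold change 1.68 ± 0.20 (SE), adjusted p = 0.00401), and 0.205% of tested genes had a larger one. The call ended without knockout replicate 3 (adjusted p = 0.0561). In the depth class with few counts the knockout minus WT difference of log2 CPM was 1.59, and in the other class it was 1.67, so the difference was of like size in both. In whole glands, more cells of a type and more polymerase per cell cannot be told apart, here and in all values below.

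Over its body, Ddx60 had 171, 158 and 150 CPM in knockout replicates 1 to 3, against 109, 133 and 61.7 CPM in WT replicates 1 to 3. The knockout glands were alike, while WT replicate 3 was less than any other library, and the groups did not overlap. The log2 fold change was 0.66 ± 0.26 and did not pass (adjusted p = 0.874), and it was 0.40 without WT replicate 3. Over the body the difference of log2 CPM was 0.51 in the class with few counts and 1.32 in the other. The 1 WT library of that other class is replicate 3, so the body difference was not of like size in both. At the TES, Ddx60 had 64.4, 59.4 and 60.0 CPM in knockout replicates 1 to 3, against 36.1, 37.3 and 24.9 CPM in WT replicates 1 to 3. Every knockout library again stood above every WT library, and the fold was 1.90 (log2 fold change 0.93 ± 0.23, adjusted p = 0.0351). That call held without WT replicate 2 (adjusted p = 0.0478) and ended without any other single library, with adjusted p up to 0.175. The difference of log2 CPM was 0.79 in the class with few counts and 1.22 in the other.

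Dhx58, which encodes the RIG-I relative LGP2 (chromosome 11, 100694884 to 100704271), differed most at the TES. Its TES levels were 76.6, 57.6 and 61.0 CPM in knockout replicates 1 to 3, against 30.2, 45.1 and 31.5 CPM in WT replicates 1 to 3. The groups did not overlap, and the fold was 1.85 (log2 fold change 0.89 ± 0.23, adjusted p = 0.049). The difference of log2 CPM was 1.03 in the class with few counts and 0.89 in the other, but the call held without WT replicate 2 alone (adjusted p = 0.0294) and ended without each other library (up to 0.261). Over the gene body it had 28.2, 22.5 and 25.0 CPM in knockout replicates 1 to 3, against 17.4, 15.9 and 14.3 CPM in WT replicates 1 to 3. These groups did not overlap either, and the log2 fold change of 0.67 ± 0.17 did not pass (adjusted p = 0.299). At the TSS the knockout libraries had 46.2, 40.5 and 42.1 CPM, against 31.0, 43.4 and 20.5 CPM in the WT libraries. WT replicate 2 lay within the knockout range there, and the log2 fold change was 0.49 ± 0.28 (adjusted p = 0.952). It was 0.22 without WT replicate 3 and 0.75 without WT replicate 2.

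The gene next to Dhx58 was also called at the TES. Kat2a, a histone acetyltransferase gene on the minus strand, ends 475 bp above the upper coordinate of Dhx58. Its TES level was 174, 162 and 162 CPM in knockout replicates 1 to 3, against 87.5, 104 and 70.8 CPM in WT replicates 1 to 3, and it was called (log2 fold change 0.94 ± 0.24, adjusted p = 0.0395), although that call was lost in 7 of 16 alternatives (adjusted p up to 0.190). At its own TSS the log2 fold change was -0.31, and over its body -0.05. The strand of Dhx58 was not in the promoter annotation used, so whether its TSS or its TES faces Kat2a was not settled here. How wide the windows were is not given in the sources. Counts of Kat2a and Dhx58 may be shared at the end that faces Kat2a, whichever it is. Those of Gm38483, a noncoding RNA gene that overlaps Dhx58, may be shared too. The part of Kat2a and Gm38483 in the Dhx58 values was not tested. On the other side of Dhx58, Zfp385c had a TES log2 fold change of 0.08.

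Ddx58, the RIG-I gene itself (chromosome 4, 40203777 to 40239825), was called in 0 of the 3 regions. Over the body it had 69.5, 70.7 and 64.5 CPM in knockout replicates 1 to 3, against 55.8, 62.5 and 43.5 CPM in WT replicates 1 to 3. The lowest knockout library was just above the highest WT library, and the log2 fold change was 0.34 ± 0.16 (adjusted p = 0.934). At the TSS it had 51.8, 39.7 and 54.2 CPM in knockout and 35.9, 41.4 and 30.1 CPM in WT libraries, and at the TES 75.9, 89.6 and 85.6 CPM in knockout and 83.4, 53.9 and 48.1 CPM in WT libraries. In both end regions 1 WT library reached into the knockout range, replicate 2 at the TSS and replicate 1 at the TES. Those log2 fold changes were 0.46 ± 0.23 and 0.44 ± 0.23 (adjusted p = 0.918 and 0.776). The TES value was 0.72 without WT replicate 1 and 0.27 without WT replicate 3, and the gene body value was 0.20 without WT replicate 3.

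Eif2ak2, the PKR gene (chromosome 17, 78850504 to 78882572), had the tightest values of the 5 over the gene body. It had 67.4, 71.3 and 71.4 CPM in knockout replicates 1 to 3, against 47.0, 50.1 and 47.0 CPM in WT replicates 1 to 3. The groups were separate by far more than their spread, which was 3.28% of the mean in knockout and 3.68% in WT glands, yet the log2 fold change of 0.54 ± 0.12 did not pass over all genes (adjusted p = 0.204). At the TES it had 74.3, 83.6 and 74.3 CPM in knockout replicates 1 to 3, against 58.5, 49.0 and 39.4 CPM in WT replicates 1 to 3 (log2 fold change 0.67 ± 0.22, adjusted p = 0.234). At the TSS it had 77.7, 78.3 and 68.8 CPM in knockout and 64.8, 63.1 and 63.4 CPM in WT libraries. The groups did not overlap at either end, but the TSS log2 fold change, 0.23 ± 0.16, was the lowest of all 15 values (adjusted p = 0.952). The predicted genes Gm6548 and Gm26637 overlap Eif2ak2, one at each end of it, so counts at its ends may be shared. Gpatch11, 2196 bp below, had a TES log2 fold change of 0.84 ± 0.27 with overlapping groups and did not pass (adjusted p = 0.196).

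Helz2 (chromosome 2, 181227615 to 181242058) had like fold changes in the 3 regions and was called in 0 of them. Its TSS levels were 118, 115 and 101 CPM in knockout replicates 1 to 3, against 87.1, 79.6 and 72.0 CPM in WT replicates 1 to 3. The groups did not overlap (log2 fold change 0.49 ± 0.16, adjusted p = 0.526). Over the body it had 60.7, 68.6 and 55.1 CPM in knockout and 47.3, 42.5 and 54.8 CPM in WT libraries, and at the TES 95.8, 109 and 96.4 CPM in knockout and 75.1, 77.5 and 72.2 CPM in WT libraries. Knockout replicate 3 and WT replicate 3 nearly met over the body, while the TES groups were well apart. The log2 fold changes were 0.35 ± 0.15 and 0.43 ± 0.22 (adjusted p = 0.934 and 0.770). Fndc11, 4759 bp from it, had a TES log2 fold change of 0.61 ± 0.23 (adjusted p = 0.403), and Aco1, 4768 bp from Ddx58, had 0.09 there.

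**Figure D1:**
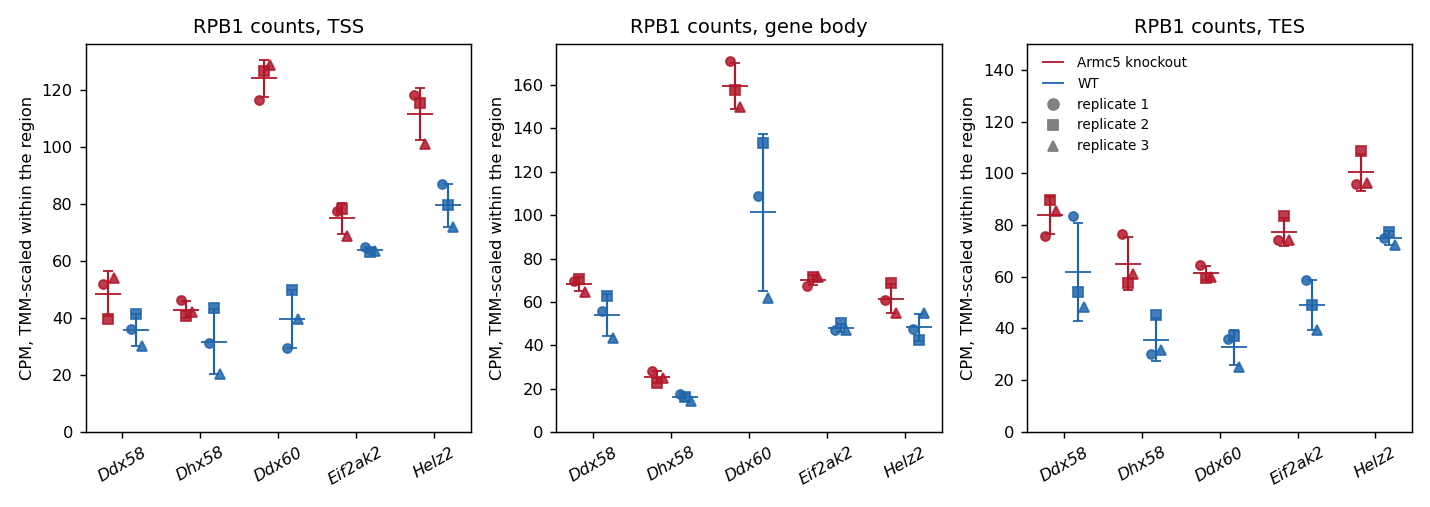
RPB1 level (CPM, TMM-scaled within each region's table) of the 5 genes at the TSS, gene body and TES, with the 3 knockout libraries in red left of the 3 WT libraries in blue. Points are single mice with a symbol per replicate number, and bars are the mean ± SD; the Ddx60 TSS values of 117 to 129 CPM in knockout stand clear of 29.4 to 49.6 CPM in WT glands.

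Counted over the 5 genes, 1 was called at the TSS (Ddx60), 0 over the gene body and 2 at the TES (Ddx60 and Dhx58), all higher in the knockout. With DESeq2 the counts were 1 at the TSS, 2 over the gene body (Dhx58 and Eif2ak2) and 0 at the TES, and table totals or joint scaling also gave 0 at the TES. Of all tested genes, 0.339% at the TSS, 0.244% over the gene body and 0.82% at the TES were called as higher, while 0%, 0.00787% and 0.0946% were called as lower. Unadjusted p-values under 0.05 were reached by 2, 3 and 3 of the 5 genes in these regions, all higher in the knockout, against 3.62%, 4.06% and 4.37% of all genes called higher by that rule. All 3 knockout libraries lay above all 3 WT libraries for 3 genes at the TSS, 5 over the body and 4 at the TES, against 6.47%, 6.51% and 6.69% of all genes. The median log2 fold change of the 5 genes was 0.49 at the TSS, 0.54 over the body and 0.67 at the TES, beside -0.01, -0.02 and -0.02 over all tested genes. Fitted log2 fold changes were above 0 for 5 of 5 genes in each region, against 48.4%, 46.3% and 47.8% of all genes at the TSS, body and TES. Because these values were known when the genes were listed, nothing is read from the counts.

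**Figure D2:**
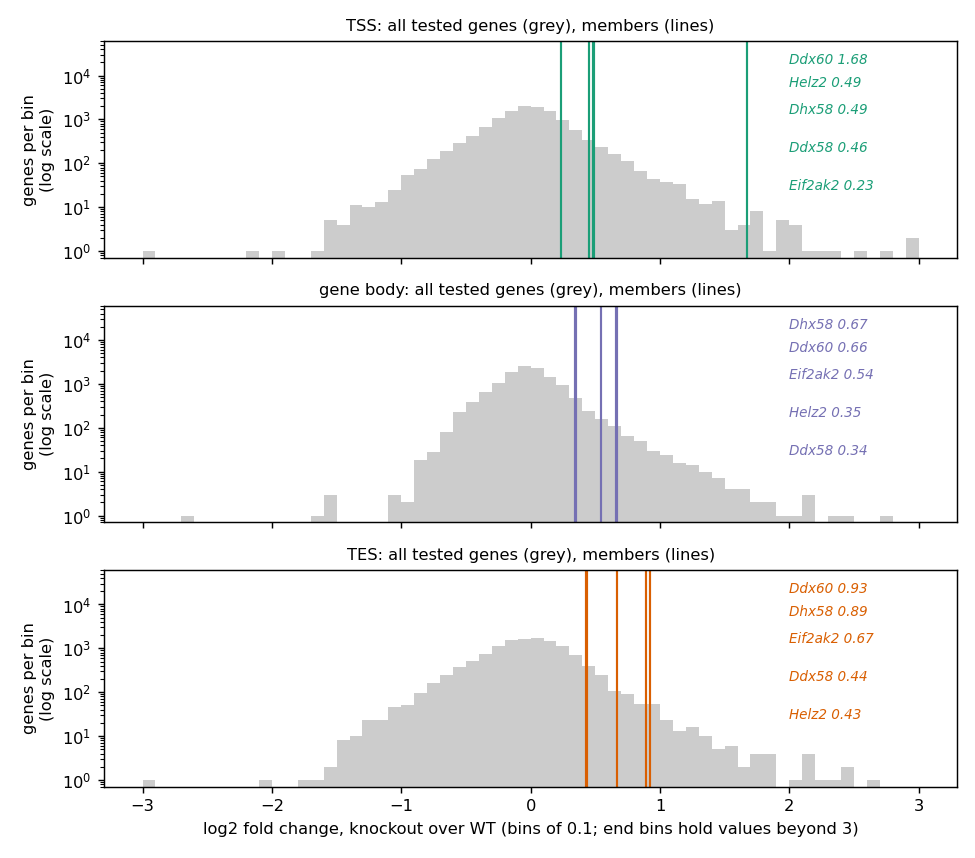
Log2 fold change, knockout over WT, of all tested genes (grey, bins of 0.1, log-scaled number of genes) with lines at the 5 genes, in 3 panels for the TSS, gene body and TES. All 15 lines lie right of 0, and the Ddx60 TSS line at 1.68 is the one farthest from the bulk of genes.

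Which region showed the larger difference varied from gene to gene. The fold change was largest at the TSS for Ddx60, Helz2 and Ddx58 and at the TES for Dhx58 and Eif2ak2. The gene body held the smallest value of Ddx60, Helz2 and Ddx58, and the TSS held the smallest of Dhx58 and Eif2ak2. Over 17 settings of the fit, the one reported included, Ddx60 was largest at the TSS in 17 and Dhx58 at the TES in 17. Eif2ak2 was largest at the TES in 16, Helz2 at the TSS in 15 and Ddx58 at the TSS in 12. These are orders of fitted values, and the differences between regions were tested separately.

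**Figure D3:**
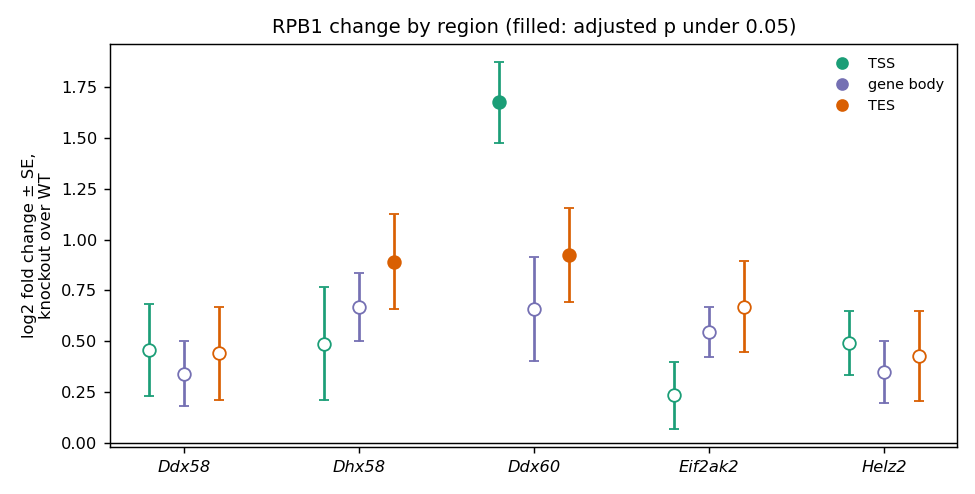
Log2 fold change ± SE, knockout over WT, of each gene at the TSS, gene body and TES; filled points had an adjusted p under 0.05. The Ddx60 TSS point, 1.68, lies above its gene body and TES points at 0.66 and 0.93, while the 3 points of Helz2 lie between 0.35 and 0.49.

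The difference between regions was tested with an interaction of region and genotype in a model that gave every library a term, and it was called for 0 of the 5 genes in each of 3 comparisons. Called ratios were also rare over all genes: 0% rose and 0% fell for TSS over gene body, 0.00789% rose and 0.00789% fell for TES over gene body, and 0.00791% rose and 0% fell for TES over TSS. An unadjusted p under 0.05 was reached by 3.64%, 5.7% and 4.62% of all genes in these comparisons, and by 1, 0 and 1 of the 5 genes, each time Ddx60. Its ratio of TSS to gene body CPM was 0.681, 0.804 and 0.858 in knockout replicates 1 to 3, against 0.270, 0.373 and 0.643 in WT replicates 1 to 3. The groups did not overlap, although WT replicate 3 came close to knockout replicate 1. WT replicates 1 and 2, which had the lower ratios, are both in the depth class with few counts. The log2 change of Ddx60 was 0.93 ± 0.31 (unadjusted p = 0.0165, adjusted p = 0.955). Its TES to TSS ratio was 0.553, 0.469 and 0.466 in knockout and 1.23, 0.751 and 0.628 in WT libraries, with a log2 change of -0.75 ± 0.32 (unadjusted p = 0.0365, adjusted p = 0.996). The smallest unadjusted p of the other 4 genes in the 3 comparisons was 0.1296, of Eif2ak2 for TES over TSS. An adjusted p that misses the threshold does not show that the regions changed alike, and the SE of 0.19 to 0.33 bounds what could be seen.

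In Eif2ak2 the TSS to gene body ratio leaned the other way, with 1.15, 1.10 and 0.964 in knockout replicates 1 to 3, against 1.38, 1.26 and 1.35 in WT replicates 1 to 3. The groups did not overlap, and the log2 change of -0.32 ± 0.19 did not pass (adjusted p = 0.955). The share of all genes whose ratios had separate groups was not counted, so the separation in Eif2ak2 and Ddx60 has no background beside it. With 1 library size per library for all regions the Eif2ak2 change was 0.05, so its direction depends on how the regions are scaled to each other. Under that scaling the median log2 change of this ratio over all genes was 0.35, against -0.02 in the reported fit. Dhx58 (-0.15), Ddx58 (0.08) and Helz2 (0.14) had smaller log2 changes of this ratio, and each of these 3 changed sign under some setting. Ratios of TES to gene body changed by 0.08 to 0.23 on the log2 scale in the 5 genes, less than the SE in each.

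**Figure D4:**
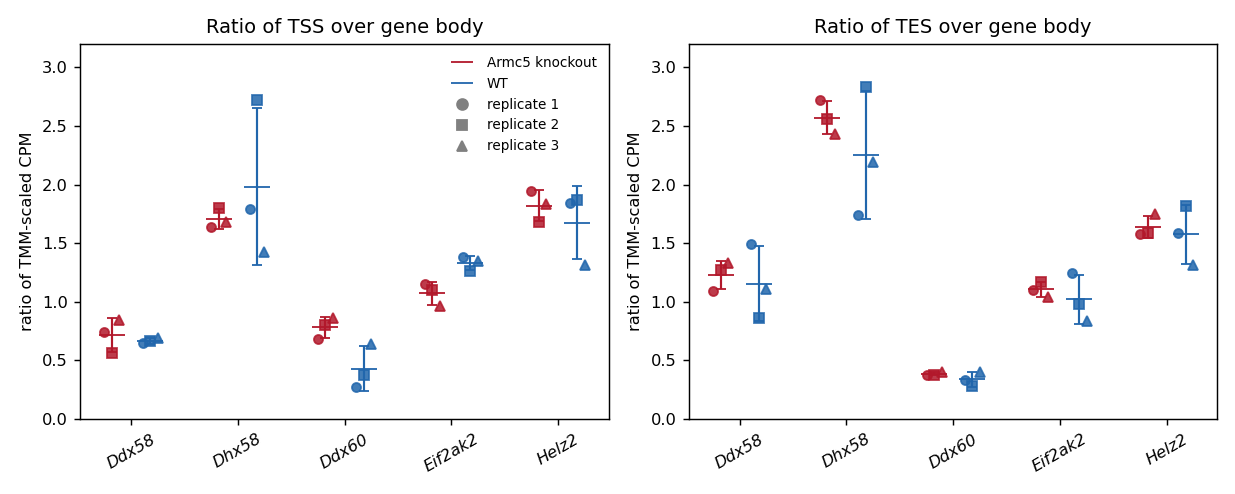
Ratio of TSS to gene body CPM (left) and of TES to gene body CPM (right) in each library, knockout in red left of WT in blue, with mean ± SD; each region is scaled within its own table. Ddx60 at the left has 0.681 to 0.858 in knockout and 0.270 to 0.643 in WT glands, while its TES ratios overlap.

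Levels of the 5 genes can be set beside each other over the gene body, per kb of annotated span. Helz2 had the highest density, 4.25 ± 0.47 CPM per kb in knockout and 3.34 ± 0.43 in WT glands (SD, n = 3 each), at the 84.1 and 79.6 percentile of 12384 genes with a span. Dhx58 followed with 2.69 ± 0.31 in knockout and 1.69 ± 0.16 in WT, Eif2ak2 with 2.18 ± 0.07 in knockout and 1.498 ± 0.055 in WT, and Ddx58 with 1.89 ± 0.09 in knockout and 1.496 ± 0.267 in WT. Ddx60, the longest gene, had the lowest density, 1.46 ± 0.10 in knockout and 0.924 ± 0.331 in WT, at the 41.2 and 17.5 percentile. In WT glands the values of Dhx58, Eif2ak2 and Ddx58 overlapped, and 1 WT value of Ddx60 reached those of Ddx58, so that order is not resolved. In knockout glands no neighbours in the order overlapped.

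**Figure D5:**
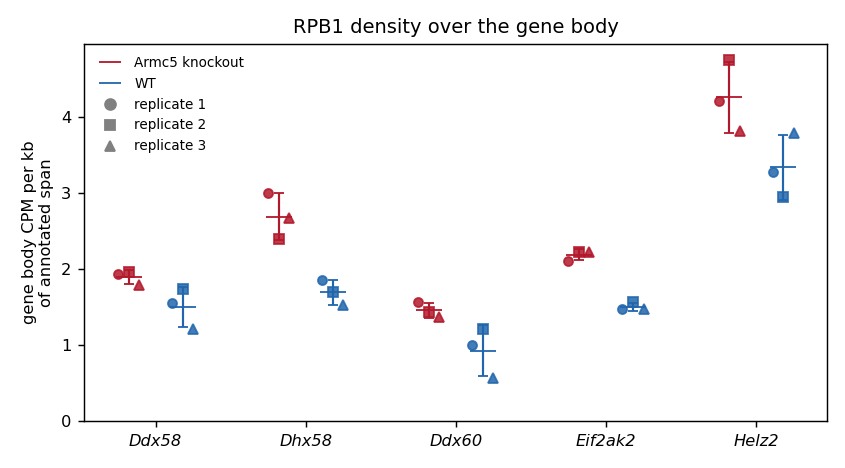
Gene body CPM per kb of the annotated gene span for the 5 genes, knockout in red left of WT in blue, points for mice and bars for mean ± SD. Helz2 is highest in both genotypes (4.25 and 3.34) and Ddx60 lowest (1.46 and 0.924).

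The WT libraries varied more than the knockout libraries in several of these genes. The coefficient of variation of Ddx60 was 5.31% in knockout and 25.6% in WT glands at the TSS, 6.67% and 35.8% over the body, and 4.44% and 20.8% at the TES. Dhx58 at the TSS had 6.77% in knockout and 36.3% in WT, and Ddx58 at the TES 8.42% and 30.6%. Eif2ak2 went the other way at the TSS, with 7.11% in knockout and 1.44% in WT. So did Helz2 at the TES (7.30% in knockout and 3.54% in WT) and Dhx58 over the body (11.35% and 9.51%). Ddx58 at the TSS had nearly equal values, 15.96% in knockout and 15.78% in WT. Over all tested genes the median was 17.0% in knockout and 19.0% in WT at the TSS, 10.96% and 18.58% over the body, and 17.1% and 22.9% at the TES, so a wider WT spread was common in the tables. With 3 libraries each, no test of spread was made.

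Levels of the 5 genes were also correlated with each other across libraries. Over 18 values, 6 libraries in each of 3 regions with each region centred, the log2 CPM of gene pairs had Pearson correlations of 0.61 (Ddx58 and Helz2) to 0.78 (Ddx58 and Ddx60). These values share libraries and genotypes, so the correlation is a description. The genotype difference, by which the genes were listed, was left in, so positive correlations follow from the choice of genes. The closest genes below were found with that difference left in too. Among 12642 other genes, the closest to Ddx60 were Oas1a (r = 0.97), which encodes a sensor of double-stranded RNA, Rdh10 (0.96), a retinol dehydrogenase gene, and Rsad2 (0.94), which encodes the antiviral enzyme viperin. Oas1a had TSS levels of 46.2, 64.1 and 47.9 CPM in knockout replicates 1 to 3, against 9.80, 18.6 and 11.2 CPM in WT replicates 1 to 3, so like Ddx60 it had separate groups there. Eif2ak2 was closest to Slc5a3 (0.96), a myo-inositol transporter gene, Herc6 (0.95), an interferon-induced gene, and Gclc (0.94). Gclc encodes the catalytic subunit of the first enzyme of glutathione synthesis. Dhx58 was closest to Ifi27 (0.91), Trim43a (0.91) and Tuba3a (0.90), with 1 predicted gene among the closest. Helz2 was closest to Hspb6, Irf7 and Ahcy (each 0.89), and Ddx58 to Pcp4l1 (0.88), Grasp (0.86) and Car8 (0.84).

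Other genes of nucleic acid sensing were read from 6 lists, of which 99 genes were tested in each region. At the TSS 1 was called as higher (1.01%), over the gene body 1 (1.01%) and at the TES 2 (2.02%), against 0.339%, 0.244% and 0.82% of all tested genes, and 0 were called as lower. Their median log2 fold changes were 0.06, 0.01 and 0.05, close to those of all tested genes. The called genes were Irf7 at the TSS, Irf9 over the body, and Tlr9 and Usp18 at the TES.

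Among 17 other sensors, 0 were called at the TSS, 0 over the body and 1 at the TES. Tlr9, an endosomal receptor for unmethylated DNA, rose at the TES to 111, 89.6 and 111 CPM in knockout replicates 1 to 3, against 50.9, 27.5 and 44.6 CPM in WT replicates 1 to 3 (log2 fold change 1.31 ± 0.24, adjusted p = 0.000759), and the call held in 16 of 16 alternatives. Its levels were lower elsewhere, 1.92 to 12.4 CPM at the TSS and 4.97 to 12.2 CPM over the body. The log2 fold changes there, 0.93 and 0.88, did not pass (adjusted p = 0.952 and 0.352). Genes next to Tlr9 were not looked at. Ifih1, which encodes MDA5 and is named after its values were seen because it is the other receptor of the family, had TSS levels of 51.2, 50.4 and 62.2 CPM in knockout and 24.5, 29.0 and 37.4 CPM in WT libraries. Its groups did not overlap there, and the log2 fold change of 0.83 ± 0.23 did not pass (adjusted p = 0.364). Its gene body and TES values were 0.49 and 0.28, so its largest value was at the TSS, while that of Tlr9 was at the TES. Differences between regions were not read for these list genes.

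Of 22 adaptors, kinases and factors of the RIG-I pathway, 1 was called at the TSS, 0 over the body and 0 at the TES, and the median log2 fold changes were -0.08, 0.00 and -0.09. Irf7, the factor that amplifies interferon induction, rose at the TSS to 201, 187 and 226 CPM in knockout replicates 1 to 3, against 110, 104 and 88.3 CPM in WT replicates 1 to 3 (log2 fold change 1.03 ± 0.16, adjusted p = 0.02). That call was lost without knockout replicate 2 or 3 or WT replicate 1 or 2 (adjusted p up to 0.154) and held in the other 12 alternatives. Mavs, the adaptor itself, named after its values were seen, had a log2 fold change of 0.20 at the TSS, -0.16 over the body and -0.12 at the TES. Of 13 inhibitors of the pathway 0 were called in any region, and the smallest p was that of Tkfc, an inhibitor of MDA5, over the body (log2 fold change 0.45 ± 0.13, adjusted p = 0.439).

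Around PKR, 0 of 14 genes of the eIF2 kinase pathway were called in any region. Tarbp2, which encodes a double-stranded RNA binding protein that inhibits PKR, had the smallest p, at the TSS (log2 fold change 0.57 ± 0.17, adjusted p = 0.444). Of 17 genes of nucleic acid turnover and editing 0 were called, and the smallest p was that of Adar over the body (log2 fold change 0.59 ± 0.13, adjusted p = 0.19). Adar encodes the RNA editing enzyme that keeps cellular double-stranded RNA from being sensed. Its log2 fold change was -0.21 at the TSS and 0.42 at the TES. Of 16 genes of the interferon receptor pathway, 0 were called at the TSS, 1 over the body and 1 at the TES, and the median log2 fold changes were 0.12, 0.17 and 0.20. Irf9, which encodes a DNA-binding factor of the interferon response, rose over the body to 51.7, 52.5 and 50.2 CPM in knockout replicates 1 to 3, against 25.4, 25.8 and 28.4 CPM in WT replicates 1 to 3 (log2 fold change 0.96 ± 0.13, adjusted p = 0.0436). That call was lost in 9 of 16 alternatives, among them each fit without 1 library (adjusted p up to 0.308), while the log2 fold change stayed between 0.85 and 1.01. Usp18, which removes ISG15 from proteins and restrains the receptor, rose at the TES (log2 fold change 0.93 ± 0.24, adjusted p = 0.0423), and lost that call in 6 of 16 alternatives (adjusted p up to 0.291).

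Levels of markers of other cells were read beside these values. Of 12 macrophage and myeloid markers 7 were in the tables, and 0 were called. Their summed level was 150 to 178 CPM in knockout and 167 to 206 in WT glands at the TSS, 112 to 134 and 119 to 153 over the body, and 693 to 766 and 537 to 634 at the TES, where the groups did not overlap. Cd68 made up most of that TES gap, with a mean of 429 CPM in knockout and 321 CPM in WT glands, and 3 of the 7 markers were lower in the knockout. Without Cd68, a sum taken after its values were seen, the other 6 markers had 238 to 366 CPM in knockout and 251 to 310 CPM in WT glands at the TES, and the groups overlapped. Of 12 lymphocyte markers 0 were in the tables and none was analysed here. Of 5 markers of plasmacytoid dendritic cells, which make interferon, Bst2 alone was in the tables, and it is itself interferon-induced. Bst2 had 101 to 122 CPM in knockout and 54.4 to 78.6 in WT glands at the TSS, and its groups did not overlap in any region.

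Markers of other gland compartments also moved in part. The 6 chromaffin medulla markers in the tables summed to 134 to 220 CPM in knockout and 108 to 133 in WT glands at the TSS, with no overlap, and overlapped elsewhere. The 3 fibroblast markers in the tables summed to 82.0 to 101 CPM in knockout and 115 to 306 in WT glands over the body. Of them 2, Pdgfra and Col3a1, were called lower at the TES (log2 fold changes -1.71 and -1.33, adjusted p = 0.000538 and 0.0145). Those calls were lost in 1 and 4 of 16 alternatives. Pdgfra TES levels were 24.5, 20.6 and 24.6 CPM in knockout replicates 1 to 3, against 26.6, 113 and 91.8 CPM in WT replicates 1 to 3. Col3a1 had 30.7, 15.5 and 12.8 CPM in knockout and 33.7, 61.8 and 49.9 CPM in WT libraries. In both genes WT replicate 1 lay close to the highest knockout library. The 5 endothelial markers in the tables summed to 226 to 237 CPM in knockout and 250 to 332 in WT glands at the TES, with 0 called. No marker found in the tables was at 0 in all libraries. The part of these cell types in the values of the 5 genes was not tested.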

How the data were processed

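Per the labels' protocols, adrenal glands were homogenised, fixed with formaldehyde, sonicated and immunoprecipitated for RPB1. The authors deposited whole-number read counts per gene at the TSS, gene body and TES, 1 column per library. The authors also deposited these 38154 rows as a joint table and its log2 CPM, and 0 of the joint counts differed from the region tables, so neither entered a test. Per the submitters' processing notes, builds were GRCm38 and mm10 and among the tools listed are BWA, HOMER, MACS2, Picard, Trimmomatic, bcl2fastq 2.20, limma and edgeR. The sources used here do not give the counting tool, strand use, window widths or any input library.

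Each count table was fitted whole with edgeR 4.0.16 (R 4.3.3; TMM, filterByExpr with a minimum count of 10 and a total of 15, quasi-likelihood test, genotype alone), with Benjamini-Hochberg adjustment over 12682, 12714 and 12680 genes. SE is the log2 fold change over the square root of F. Interactions tested the ratio of regions with library as block. The scripts were checked on simulated data. Alternatives were other scalings and filters, DESeq2 1.42.0, limma 3.58.1, covariates and leaving out each library. Members, lists and tests were chosen with earlier results of these data known. The named genes are the 5 members, called list genes (up to 3 a list, or the smallest p where 0 were called), neighbours within 5000 bp and the 3 most alike genes per member, with exceptions stated. Of 12718 symbols 12384 matched RefSeq (GRCm38.p6). Intervals of counting error cover counting alone.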

Additional observations from a re-analysis of the deposited data

How the results depend on the processing

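Over 16 alternatives in each region, all 240 fold changes of the 5 genes were above 0, as in the fit reported. Ddx60 at the TSS kept its call in 15 of 16 (adjusted p 2.27e-09 to 0.0561), and without 1 library at a time 0 to 1 genes were called there. Over the gene body DESeq2 called 2, Dhx58 and Eif2ak2 (adjusted p = 0.0375 and 0.00415), and every other alternative called 0. The TES count of 2 was 1 with RLE scaling, no filter and the stricter filter, 0 with table totals, joint scaling and DESeq2, and 0 to 2 without 1 library at a time. Dhx58 lost its TES call in 11 of 16 and Ddx60 in 8 (adjusted p up to 0.261 and 0.175), and the cause was not tested. Joint scaling (1 library size for all regions) moved the median log2 fold change of all genes to 0.24 at the TSS, -0.12 over the body and -0.12 at the TES, and the ratio of TSS to gene body to 0.35 and of TES to TSS to -0.35. Under it the TSS to gene body ratio changed sign for Dhx58 (0.22) and Eif2ak2 (0.0483), and the TES to TSS ratio for Ddx58 (-0.34), by construction of the scale. Without 1 library at a time the log2 change of TSS to gene body ranged from -0.0348 to 0.244 for Ddx58, -0.352 to 0.0982 for Dhx58 and -0.0283 to 0.229 for Helz2. That of TES to gene body ranged from -0.0746 to 0.311 for Ddx58, -0.0152 to 0.294 for Eif2ak2 and -0.0413 to 0.177 for Helz2, and that of TES to TSS from -0.169 to 0.266 for Ddx58 and -0.124 to 0.0032 for Helz2.

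With the replicate number as a block, 1, 0 and 2 of the 5 genes passed in the 3 regions, as without it (Ddx60 TSS adjusted p = 8.5e-05), and over all genes 100, 0 and 194 were called, against 43, 32 and 116. Correlations of deviations between same-numbered libraries ran from -0.58 to 0.44. The deviations were centred within groups of 3 libraries, so they cannot show whether the numbers pair the mice. The mouse number class and the depth class as covariates left the counts of called members as they were. Over all genes, calls at the TSS were 107 with joint scaling, 95 with DESeq2, 75 with the mouse number class and 158 with the depth class. Over the gene body they were 0, 179, 0 and 95 in that order, and at the TES 61 with joint scaling and 184 with the depth class. Without 1 library at a time they were 5 to 84 at the TSS, 0 to 37 over the body and 73 to 148 at the TES. The calls of Irf7, Irf9, Tlr9, Usp18, Kat2a, Pdgfra and Col3a1 were put through the same 16 alternatives, a choice made after seeing the data, and 0 changed sign. With the replicate block Irf9 lost its call (adjusted p up to 0.308 over its alternatives). At this depth, counting error of 16.2% limits the lowest counts.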
